A study of Homo sapiens with 31 samples.

Results

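The 38 genes described here act in homologous recombination (HR) and in the Fanconi anaemia (FA) pathway of DNA repair. They were chosen by gene name as known components of these pathways. No measured value set the choice, but earlier results of these data were known when it was made. Each was found in all of the count tables, among 56269 gene names. Messenger RNA captured from total RNA was sequenced from MCF10A, a non-transformed human mammary epithelial cell line, while cells entered the cell cycle. All cells had first been kept without serum, EGF and insulin for 2 to 3 days, and the group at 0 h was collected in that starved state. The others received full growth medium with 0.1% DMSO, the solvent, and were collected at 3, 6, 9, 12, 15 or 24 h, or the same medium with 1 µM palbociclib, an inhibitor of the kinases CDK4 and CDK6, and were collected at 9, 12, 15 or 24 h. Each group had 3 libraries, except the groups at 24 h, which had 2 each (replicates 1 and 3). The 31 libraries held 10342358 to 20878364 counts. Whether the replicates of a group were separate cultures is not stated in the labels, and a p-value here refers to the spread between libraries, part of which may be technical.

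Levels are given as CPM, the count of a gene scaled to a fixed library total, with the library total corrected by a trimmed mean of M values (TMM) factor. Markers of basal breast epithelium summed to 13263 to 20998 CPM in every library, and luminal markers to 285 to 750 CPM. Fibroblast markers summed to 11.3 to 29.7 CPM, endothelial markers to 0.193 to 5.85 CPM and blood markers to 0 to 0.239 CPM. A gene was called higher or lower at a Benjamini-Hochberg adjusted p below 0.05 in edgeR's quasi-likelihood test over 15787 genes, which included all 38. "Rose" and "fell" below refer to such calls, and all adjusted p-values come from this test. In RNA from whole cultures, a smaller share of cells in a cycle phase and less of a transcript in each cell cannot be told apart.

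In the FA pathway, a core complex senses DNA strands that are cross-linked to each other and, with the ubiquitin ligase FANCL and the conjugating enzyme UBE2T, adds ubiquitin to the FANCD2 and FANCI pair. In HR, broken ends are cut back to a single strand, BRCA1, PALB2 and BRCA2 prepare this strand for exchange, and the joined molecules that follow are dissolved by the BLM complex or cut by nucleases. HR copies an intact sister chromatid and is used mainly in S and G2 phase, and transcription of many of these genes is known to be under the control of E2F factors, which the retinoblastoma protein holds in check until cyclin-dependent kinases phosphorylate it.

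The sequence before the start of these genes is shown because most of them moved together. RefSeq promoters (GRCh38.p14) were matched by symbol for 33 of the 38 genes, with 43 start sites, and FANCI, RAD54B, NBN, DNA2 and RMI2 were not matched. The 250 bases before each start were searched on both strands for 4 forms of the E2F letters, which were TTGGCGC as the first form, TTGCCGC as the second form, TTCGCGC as the third form and TTCCCGC as the last form. Of the 43 starts, 14 (32.6%) held one of them, against 10.9% of 35116 promoters of the same length. These starts belonged to 12 genes: FANCA, FANCC, FANCG, FANCL, BRCA1, RAD51D, RAD51AP1, RAD54L, BLM, TOP3A, RMI1 and EME1. Starts of the same gene can overlap, and starts 1 and 2 of RAD54L share the same match, so that starts are not independent. The longer letters TTTGGCGC, TTTGCCGC, TTTCGCGC and TTTCCCGC, each of which contains a shorter one, were in 6.98% of the starts and 2.79% of all promoters, and the shorter form was added after these counts were seen. The CHR letters, TTTGAA or the other form TTCGAA, a motif of genes expressed late in the cycle, were in 9.30% of the starts against 14.3% of promoters. CCAAT was in 34.9% against 32.0%, and the GC box GGGCGG in 62.8% against 42.6%. A match is only a description of the letters.

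Windows of 5 genes that hold a match and of 4 that hold none are printed 5′ to 3′ along the strand of the gene, each 120 bases long and ending where the gene model of the count tables begins, or a few bases before it for SLX4. Capitals mark the E2F letters, in either orientation. All of the genes of the first 5 were lower with palbociclib at 15 h. Of the other 4, XRCC2 and FANCB were among those that fell most, and SLX4 and FAN1 were not called at any time.
RAD54L (chr1:46247568-46247687, + strand): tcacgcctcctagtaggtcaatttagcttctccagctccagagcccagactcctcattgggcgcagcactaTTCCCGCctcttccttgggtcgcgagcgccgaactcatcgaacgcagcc
BLM (chr15:90717207-90717326, + strand): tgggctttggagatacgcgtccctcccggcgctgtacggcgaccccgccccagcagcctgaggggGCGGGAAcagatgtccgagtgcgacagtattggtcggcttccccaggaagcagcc
EME1 (chr17:50373100-50373219, + strand): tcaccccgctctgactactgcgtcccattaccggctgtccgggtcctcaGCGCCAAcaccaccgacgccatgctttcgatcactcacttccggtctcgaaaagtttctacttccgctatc
FANCG (chr9:35080017-35080136, − strand): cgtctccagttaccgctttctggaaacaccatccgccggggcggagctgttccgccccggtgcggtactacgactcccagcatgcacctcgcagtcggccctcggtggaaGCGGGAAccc
FANCL (chr2:58241373-58241492, − strand): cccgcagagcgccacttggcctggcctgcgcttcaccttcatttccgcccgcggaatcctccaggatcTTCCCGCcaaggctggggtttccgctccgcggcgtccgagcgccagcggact
XRCC2 (chr7:152676166-152676285, − strand): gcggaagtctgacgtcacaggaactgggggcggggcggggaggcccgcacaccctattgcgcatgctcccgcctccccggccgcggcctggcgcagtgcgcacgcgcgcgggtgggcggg
FANCB (chrX:14873070-14873189, − strand): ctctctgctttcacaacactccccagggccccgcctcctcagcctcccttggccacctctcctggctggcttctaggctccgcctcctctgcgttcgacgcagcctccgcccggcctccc
SLX4 (chr16:3611607-3611726, − strand): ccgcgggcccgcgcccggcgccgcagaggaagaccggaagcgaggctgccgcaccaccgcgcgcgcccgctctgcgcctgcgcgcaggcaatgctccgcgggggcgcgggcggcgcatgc
FAN1 (chr15:30903732-30903851, + strand): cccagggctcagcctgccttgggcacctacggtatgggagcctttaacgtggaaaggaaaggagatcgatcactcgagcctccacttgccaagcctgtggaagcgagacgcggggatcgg

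After release in DMSO, more HR and FA genes were lower than higher against 0 h at 3 and 6 h, as among all genes. From 9 h on more of the 38 were higher than lower, while among all genes more were lower. At 3 h 7 of the 38 were higher and 19 lower than at 0 h, where 27.8% of all tested genes were higher and 34.4% lower. At 6 h 13 were higher and 16 lower, close to the shares of all genes (34.0% and 39.5%). The balance turned at 9 h, with 25 higher and 7 lower (35.3% and 39.9%). At 12, 15 and 24 h 34 were higher and 4 lower, against 36.1% and 39.6%, 37.4% and 39.3%, and 36.7% and 38.9% of all genes. The median log2 fold change of the 38 against 0 h over these 6 times was -0.30, -0.31, 0.58, 1.30, 1.91 and 2.45 in turn, while that of all tested genes lay between -0.10 and -0.06. Scaling by library totals alone moved the all-gene median by -0.17 at 3 h, and 4 of the 38 were then higher at 3 h.

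Counts of genes at least 2-fold higher than at 0 h were 3, 1, 13, 25, 27 and 28 of 38 at 3, 6, 9, 12, 15 and 24 h. The same rule took in 10.6%, 13.8%, 14.5%, 15.6%, 16.7% and 16.4% of all genes. The first such rise came at 3 h for BARD1, BRIP1 and MUS81, at 9 h for 11 genes, at 12 h for 12, at 15 h for FANCG and FANCD2 and at 24 h for RAD51C. It was not seen for 9 genes: FANCE, FANCF, FANCL, PALB2, NBN, RAD50, TOP3A, RMI1 and FAN1. The DMSO mean was highest at 24 h for 25 genes and at 15 h for 7, and FANCE, FANCF, RAD50 and FAN1 were highest at 0 h. This order of means was not tested, and some means were close. The 24 h libraries of BARD1 (30.67 and 30.93 CPM) lay within its range at 15 h (30.13 to 31.07 CPM).

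From one time to the next, the most genes rose between 9 and 12 h. Between 3 and 6 h 14 genes rose and 10 fell (27.8% and 29.8% of all genes). Between 6 and 9 h 26 rose and 2 fell, against 18.1% and 16.6%. Between 9 and 12 h 30 rose and none fell by edgeR's quasi-likelihood test, against 9.07% and 6.12% of all genes, with 1 lower at an unadjusted p below 0.05 and 0 lower by DESeq2. Between 12 and 15 h 26 rose and none fell, against 5.03% and 1.98%, again with 1 lower at an unadjusted p below 0.05 and 0 lower by DESeq2. Between 15 and 24 h 14 rose and 2, BRIP1 and MUS81, fell (16.5% and 13.0%). These 24 h counts rest on 2 libraries and moved with the choice of libraries. An alternative left out 5 libraries (replicate 3 of DMSO at 24 h and of each palbociclib group). Each 24 h group then had 1 library, and fewer genes were called.

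**Figure D1:**
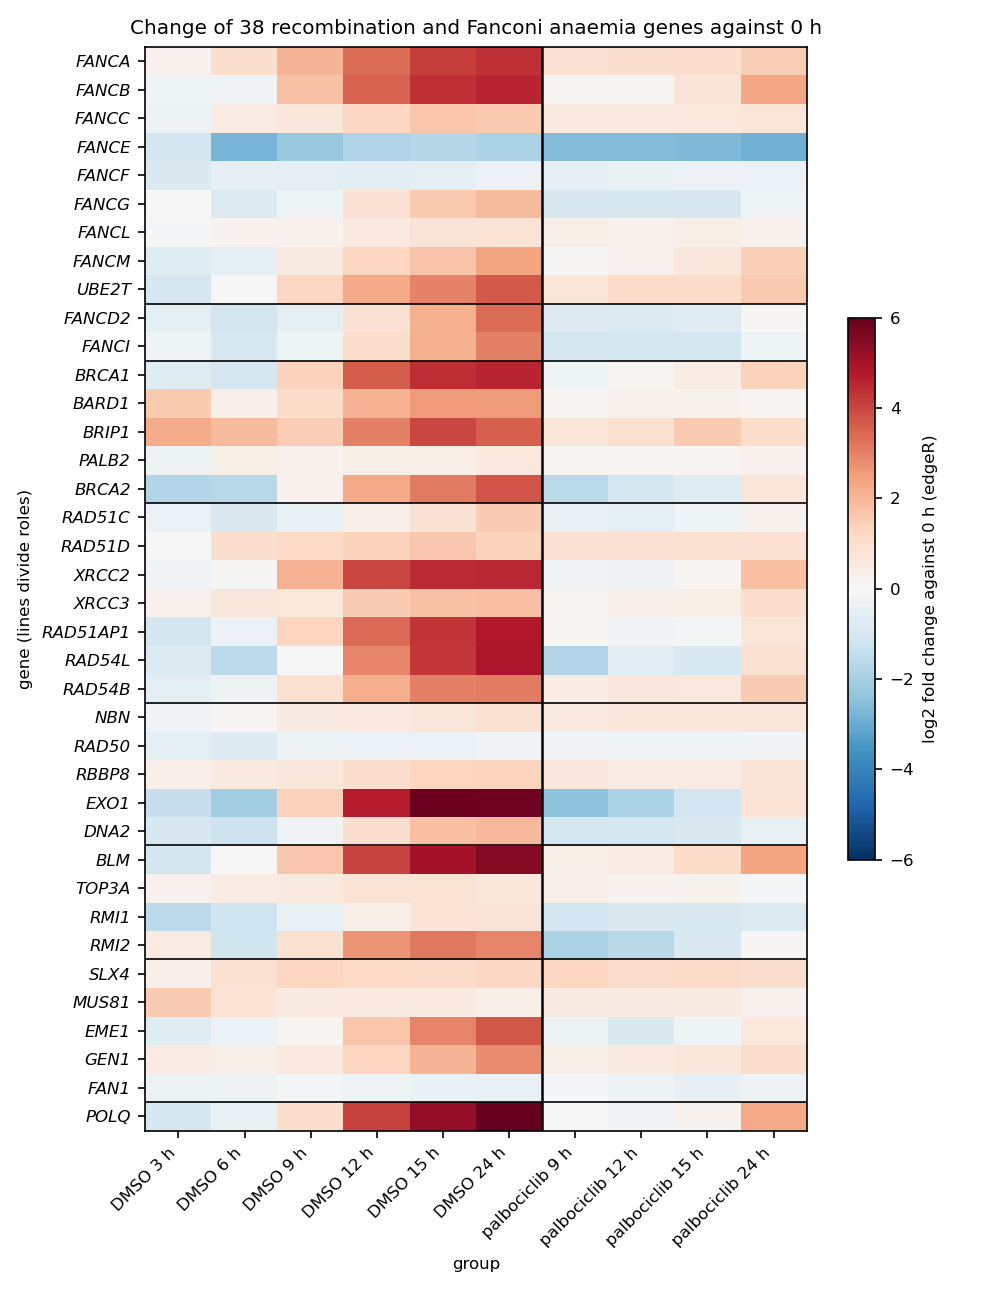
Log2 fold change against 0 h of the 38 genes (rows, ordered by role, with lines between roles) in DMSO at 3 to 24 h and palbociclib at 9 to 24 h (columns), on a colour scale from -6 to 6. In DMSO 13 of the 38 genes were called higher at 6 h, close to the share of all tested genes (34.0%). At 9 h 25 were higher, against 35.3% of all tested genes. From 12 h on 34 were higher, against 36.1%, 37.4% and 36.7% at 12, 15 and 24 h. FANCE stays lower at every time, and at 15 h the median over the genes is 1.91 in DMSO and 0.22 with palbociclib.

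With palbociclib, the HR and FA genes were lower than in DMSO at the same time, and more of them with time. At 9 h 18 of 38 fell, where 1.08% of all tested genes were lower. At 12 h 31 fell, against 4.81%, at 15 h 32, against 8.79%, and at 24 h 33, against 12.3%. None was higher at any of the 4 times, by edgeR's test or by DESeq2, where 0.114%, 0.83%, 2.15% and 5.76% of all genes were higher. At an unadjusted p below 0.05, 1 was higher at 9 h, 1 at 12 h and 0 later. The number at least 2-fold lower was 9, 23, 26 and 23, a rule that took in 0.494%, 1.81%, 2.66% and 3.22% of all genes. The median log2 fold change was -0.45, -1.39, -2.06 and -1.96 at 9, 12, 15 and 24 h, with all-gene medians of 0.00 to 0.01. FANCF, RAD50, SLX4, MUS81 and FAN1 passed the test at no time. At 9 h 5 of the 18 calls (FANCB, FANCG, FANCM, RAD51AP1 and TOP3A) were lost under at least 1 alternative, at 12 h that of FANCL, at 15 h those of FANCL and PALB2 and at 24 h those of NBN, PALB2, RAD54B and XRCC3.

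Genes that mark entry into S phase moved in the same comparison. The transcription factor E2F1 was lower by -4.34, -5.69, -5.25 and -2.52 (log2) at 9, 12, 15 and 24 h, and the replication licensing gene CDC6 by -4.27, -5.38, -4.92 and -2.69. CCNB1, the mitotic cyclin B1, differed by -0.24 at 9 h, which did not pass the test, and fell by 0.46, 0.91 and 3.35 later. The part of cycle position in the values below was not tested.

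**Figure D2:**
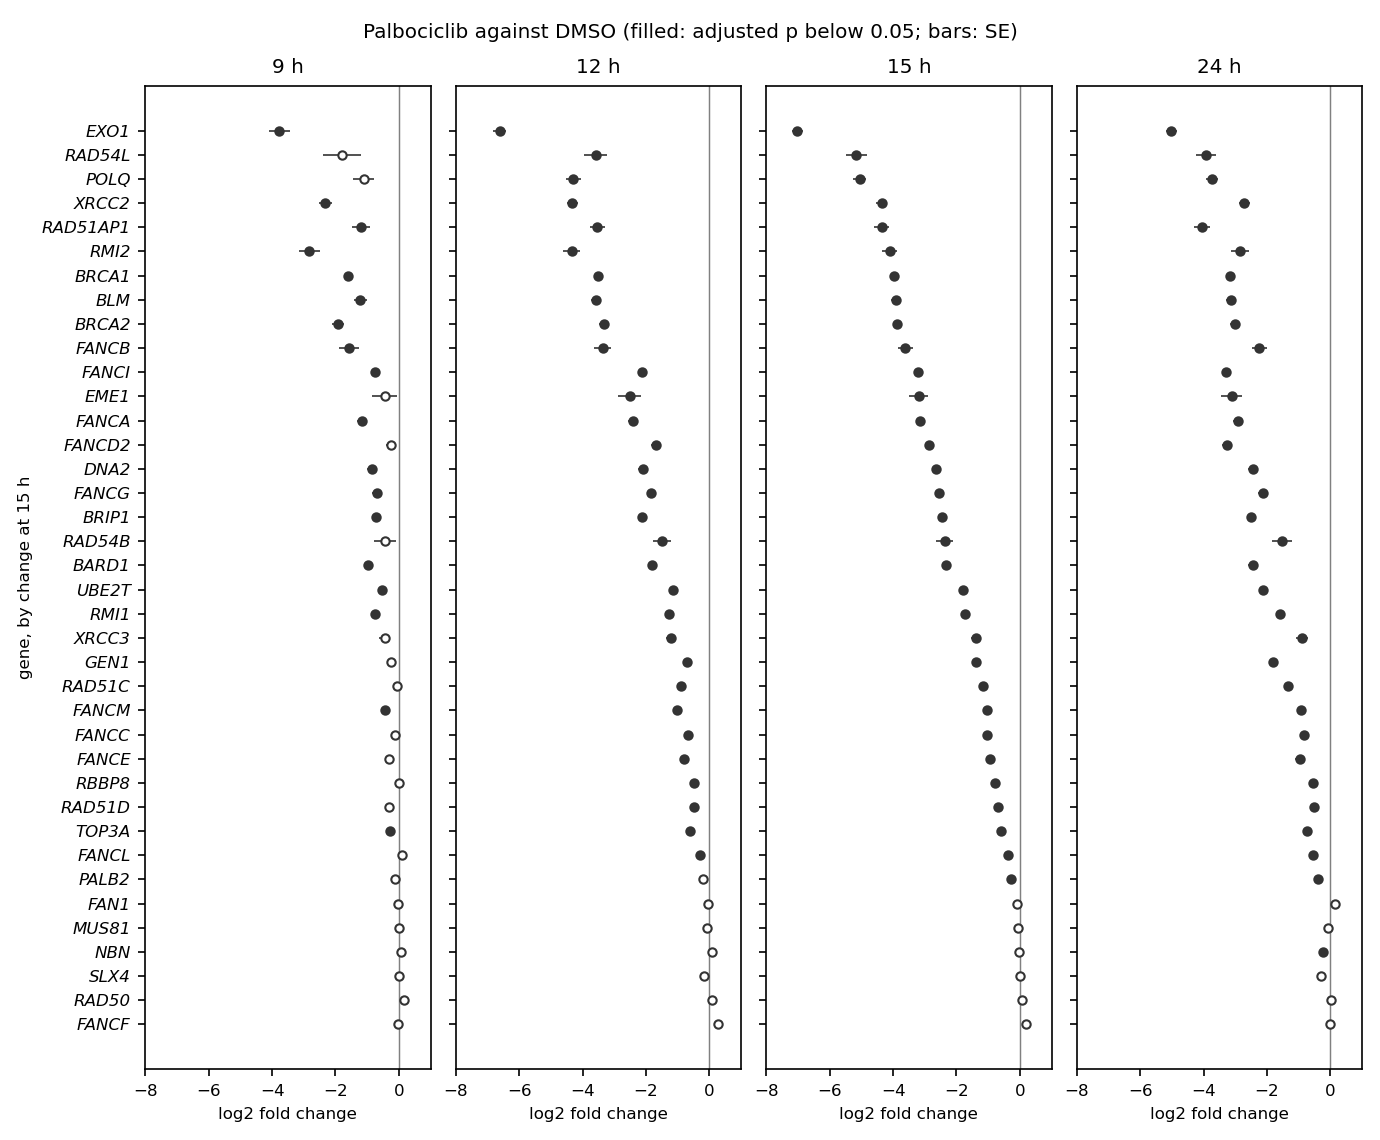
Log2 fold change of palbociclib against DMSO (bars, SE) for the 38 genes at 9, 12, 15 and 24 h, ordered by the change at 15 h, with filled points for an adjusted p below 0.05. The points run from EXO1, at -7.03 at 15 h, to 6 genes near 0 that did not pass at that time.

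Of the 12 genes with the shorter E2F letters before their start, 12 were lower with palbociclib at 15 h (median log2 fold change -2.84, range -5.16 to -0.38), and 16 of the 21 without them (median -1.37, range -7.03 to 0.19). At 9 h the counts were 7 of 12 and 8 of 21, at 12 h 12 of 12 and 15 of 21, and at 24 h 12 of 12 and 16 of 21. Of all tested genes, 1.08%, 4.81%, 8.79% and 12.3% were lower at 9, 12, 15 and 24 h. The shorter letters were added after the counts of the longer ones were seen, and the longer ones were not split in this way. Whether the letters bear on the fall was not tested. XRCC2 (-4.37) and FANCB (-3.61), whose windows hold none of the letters, fell further at 15 h than FANCG (-2.54) or FANCL (-0.38), which hold them.

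The FA core complex and its E2 enzyme comprise FANCA, FANCB, FANCC, FANCE, FANCF, FANCG, FANCL, FANCM and UBE2T. Of these 9, 5 were lower with palbociclib at 9 h and 8 at each later time, with a median log2 fold change of -1.04 at 15 h. Over all tested genes the shares lower were 1.08%, 4.81%, 8.79% and 12.3% at 9, 12, 15 and 24 h. FANCB, an X-linked subunit (chrX:14843407-14873069), was at 0.262, 0.404 and 0.656 CPM at 0 h, at 9.94, 9.25 and 9.01 CPM in DMSO at 15 h and at 0.596, 0.876 and 0.756 CPM in palbociclib at 15 h. The DMSO libraries at 15 h lay far above the others, which were close to one another. FANCB was 20.7-fold higher in DMSO at 15 h than at 0 h and 12.2-fold lower with palbociclib (-3.61 ± 0.23 SE). FANCA was at 1.70, 3.11 and 2.63 CPM at 0 h, rose to 46.6, 46.3 and 41.6 CPM in DMSO at 15 h and was at 6.13, 4.27 and 5.11 CPM with palbociclib, 8.83-fold lower. FANCA shares 23.6% of its exon bases with ZNF276, and the counts were made without strand.

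UBE2T, the conjugating enzyme, had the largest share of messenger RNA per length of the 38 genes late in DMSO. It was at 6.35, 6.11 and 6.27 CPM at 0 h, 49.2, 52.6 and 43.7 CPM in DMSO at 15 h and 11.9, 15.9 and 13.7 CPM with palbociclib, groups that did not overlap. UBE2T was 3.47-fold lower with palbociclib at 15 h. FANCL, the ligase, moved less, with 14.2, 14.1 and 14.0 CPM in DMSO at 15 h and 11.1, 11.2 and 10.3 CPM with palbociclib (log2 -0.38, adjusted p = 0.0018 by edgeR's test). Without the filter on low counts FANCL missed the threshold (adjusted p = 0.0509), and 19.7% of its exon bases lie in VRK2 or RP11-334G22.1.

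FANCC, FANCG and FANCM, further subunits, of which FANCM is the DNA-binding motor, fell with palbociclib at 15 h by 1.02, 2.54 and 1.04 on the log2 scale. FANCG was at 7.33, 9.52 and 9.61 CPM at 0 h, 27.7, 28.6 and 23.1 CPM in DMSO at 15 h and 5.54, 3.61 and 4.85 CPM with palbociclib, where each library was below those at 0 h. FANCC was at 34.4, 33.0 and 30.4 CPM in DMSO at 15 h and at 15.8, 15.6 and 16.8 CPM with palbociclib, with 10.0, 8.71 and 12.5 CPM at 0 h. FANCM was at 34.9 and 29.8 CPM in DMSO at 24 h and at 18.7 and 15.4 CPM with palbociclib. The FANCC and FANCM libraries with palbociclib lay between those at 0 h and those in DMSO.

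FANCE bridges the core complex and FANCD2 (chr6:35452361-35467103). It was below its 0 h level at each time in DMSO, unlike most of these genes from 9 h on. It was at 62.7, 62.6 and 63.7 CPM at 0 h, 31.8, 27.5 and 29.9 CPM at 3 h, 9.03, 9.48 and 8.34 CPM at 6 h and 21, 20.1 and 17.1 CPM in DMSO at 15 h. All libraries after release were below all libraries at 0 h. FANCE fell 6.99-fold by 6 h (-2.81 ± 0.10 SE, adjusted p = 8.3e-22 by edgeR's test) and was 3.24-fold below 0 h at 15 h. With palbociclib at 15 h it was at 11.2, 9.91 and 9.14 CPM, 1.94-fold below DMSO. FANCF, an adaptor subunit, was at 32.4, 31.5 and 28.2 CPM at 0 h, at 21.8, 21.8 and 20.2 CPM in DMSO at 15 h and at 22.2, 24.4 and 25.7 CPM with palbociclib, and the drug difference did not pass (0.19, adjusted p = 0.28 by edgeR's test).

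FANCD2 and FANCI, the pair that receives ubiquitin, rose late. FANCD2 was at 5.37, 7.15 and 5.91 CPM at 0 h, 3.80, 4.11 and 5.12 CPM in DMSO at 9 h, 12.5, 10.8 and 10.8 CPM at 12 h, 28.0, 29.7 and 22.8 CPM at 15 h and 63.2 and 61.4 CPM at 24 h. From 12 h on, each group lay wholly above the one before. It rose by a further 2.31-fold from 15 to 24 h in DMSO (1.21 ± 0.11 SE, adjusted p = 2e-10 by edgeR's test). Under palbociclib FANCD2 was at 3.92, 3.89 and 3.34 CPM at 15 h and 6.15 and 6.73 CPM at 24 h, 7.25-fold and 9.62-fold below DMSO. At 9 h the drug difference of FANCD2, -0.24, did not pass (adjusted p = 0.67).

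FANCI was at 16.2, 16.9 and 16.6 CPM at 0 h, 77.3, 74.5 and 69.3 CPM in DMSO at 15 h and 139 and 135 CPM at 24 h. In palbociclib FANCI was at 8.35, 7.77 and 8.01 CPM at 15 h, below every library at 0 h, and at 15.5 and 12.8 CPM at 24 h. The drug difference was 9.19-fold at 15 h (-3.20 ± 0.08 SE, adjusted p = 8e-25 by edgeR's test) and 9.76-fold at 24 h. FANCI shares 5.90% of its exon bases with POLG, and FANCD2 3.12% with FANCD2OS.

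**Figure D3:**
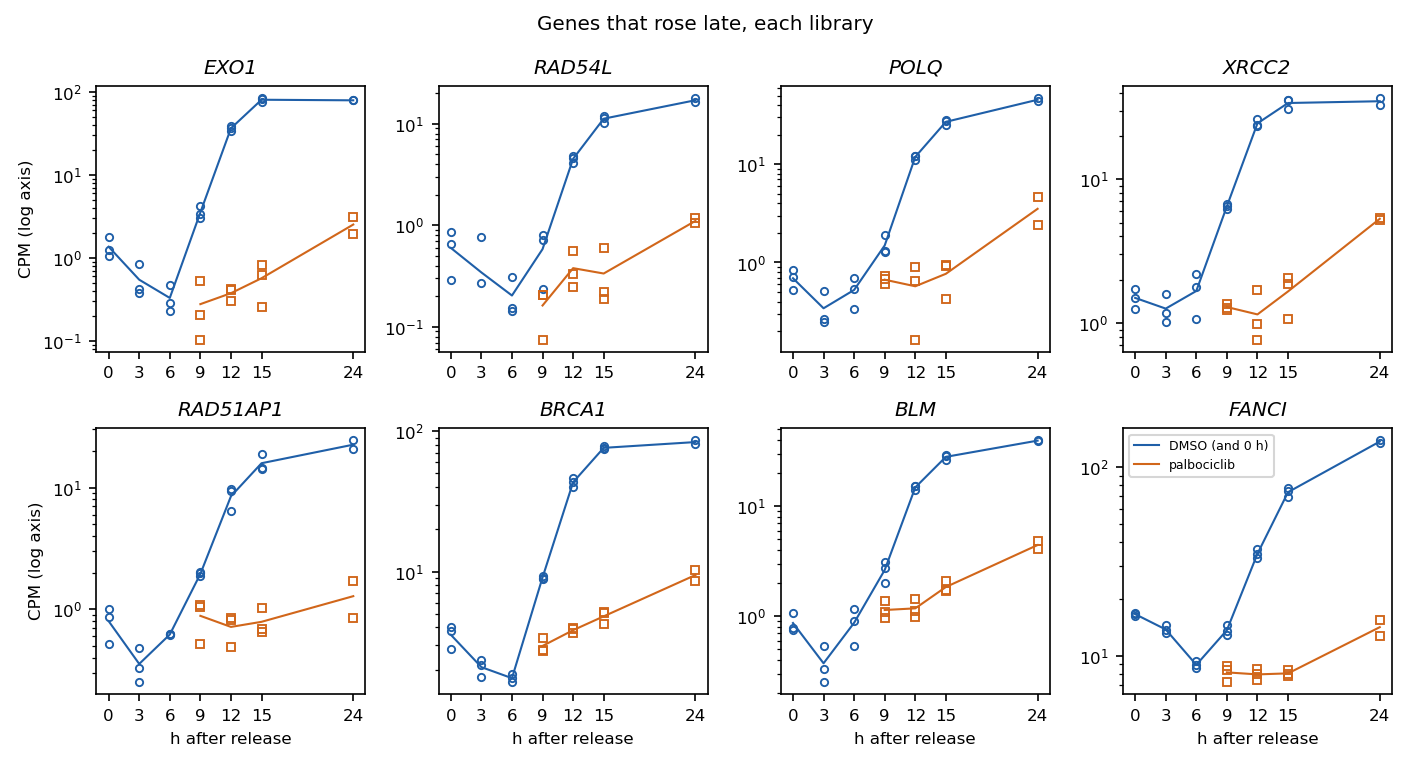
CPM of EXO1, RAD54L, POLQ, XRCC2, RAD51AP1, BRCA1, BLM and FANCI in each library (log axis) against hours after release, with circles for 0 h and DMSO, squares for palbociclib and lines through group means. DMSO and palbociclib libraries separate by 12 h in all 8 panels, and the RAD54L library of DMSO at 3 h with a value of 0 is not drawn.

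BRCA1, BARD1, BRIP1, PALB2 and BRCA2 form the axis that acts before strand exchange. Of the 5, 4 were lower with palbociclib at 9 and 12 h and 5 at 15 and 24 h. The all-gene shares were 1.08%, 4.81%, 8.79% and 12.3% at 9, 12, 15 and 24 h. BRCA1, a ubiquitin ligase (chr17:43044295-43170245), was at 4.06, 2.83 and 3.76 CPM at 0 h, 1.63, 1.73 and 1.85 CPM in DMSO at 6 h, 8.99, 9.33 and 8.91 CPM at 9 h, 46.4, 40.2 and 43.3 CPM at 12 h and 78.4, 75.6 and 74.3 CPM at 15 h. With palbociclib it was at 2.77, 3.36 and 2.73 CPM at 9 h and 5.03, 5.14 and 4.22 CPM at 15 h, with no overlap with DMSO. BRCA1 was 3.04-fold lower at 9 h and 15.8-fold lower at 15 h (-3.99 ± 0.09 SE, adjusted p = 2.7e-25 by edgeR's test).

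BRCA2, the large mediator of this axis, fell 3.38-fold from 0 to 3 h in DMSO before it rose. It was at 4.25, 4.67 and 6.03 CPM at 0 h, 1.75, 0.913 and 2.03 CPM at 3 h and 46.5, 42.6 and 43.3 CPM at 15 h. With palbociclib at 15 h it was at 3.75, 2.96 and 2.46 CPM, 14.7-fold lower. PALB2, which links BRCA1 to BRCA2, moved little, with 35.1, 34.9 and 29.2 CPM in DMSO at 15 h and 25.8, 29.4 and 26.5 CPM with palbociclib. Its drug difference was -0.28 (adjusted p = 0.0055 by edgeR's test), a call that was lost without the filter on low counts (0.0679) and without either of 2 DMSO libraries, replicate 1 (0.0504) or 2 (0.0563), or without replicate 1 of palbociclib (0.0813), without the 5 libraries (0.0678) and in a fit of only the libraries compared (0.0588).

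BRIP1 and BARD1, like MUS81, had already risen at 3 h, and both rose again later. BRIP1, a helicase that binds BRCA1 (chr17:61681266-61863521), went from 3.53, 4.09 and 4.36 CPM at 0 h to 17.7, 19.6 and 18.8 CPM at 3 h, 10.8, 11.3 and 11 CPM at 9 h and 65.2, 62.2 and 66.5 CPM at 15 h. The 9 h libraries lay below those at 3 h and above those at 0 h. The rise at 3 h was 4.67-fold (2.22 ± 0.12 SE, adjusted p = 8.6e-17 by edgeR's test), and BRIP1 fell by 0.45 on the log2 scale from 6 to 9 h. With palbociclib at 15 h BRIP1 was at 11, 13.2 and 10.8 CPM, 5.5-fold below DMSO and 2.92-fold above 0 h.

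BARD1, the partner of BRCA1 in its ligase, was at 4.32, 5.82 and 5.49 CPM at 0 h, 14.0, 14.6 and 18.2 CPM at 3 h, 5.68, 7.22 and 6.41 CPM at 6 h and 31.1, 30.1 and 30.3 CPM at 15 h. At 6 h it had come back to overlap the range at 0 h. The rise at 3 h was 2.96-fold, and BARD1 fell by 1.25 on the log2 scale from 3 to 6 h. With palbociclib at 15 h it was at 5.20, 6.90 and 5.92 CPM.

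**Figure D4:**
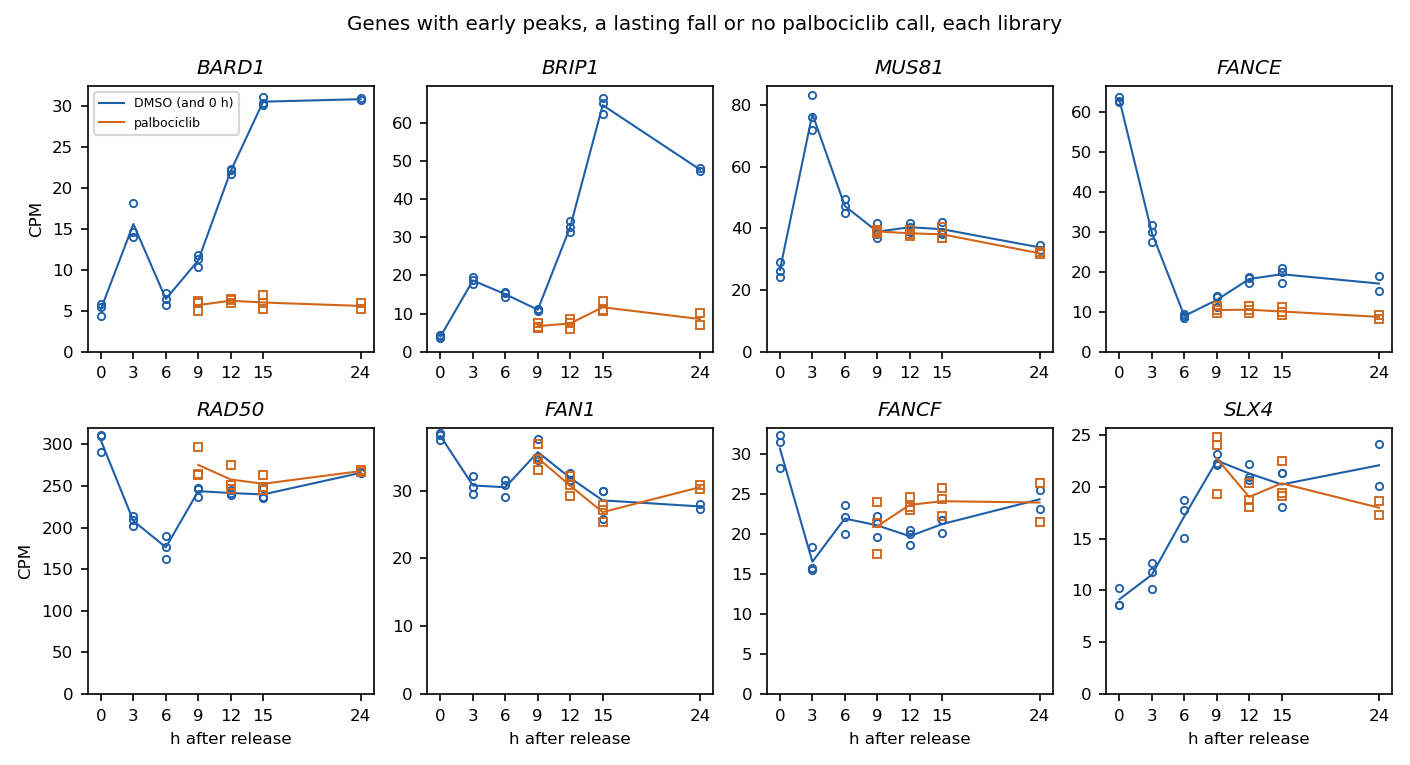
CPM of BARD1, BRIP1, MUS81, FANCE, RAD50, FAN1, FANCF and SLX4 in each library (linear axis) against hours after release, with circles for 0 h and DMSO, squares for palbociclib and lines through group means. BARD1, BRIP1 and MUS81 have a peak at 3 h, FANCE drops to 6 h, and the DMSO and palbociclib points of MUS81 lie together.

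The paralogues RAD51C, RAD51D, XRCC2 and XRCC3, the motor proteins RAD54L and RAD54B and the accessory factor RAD51AP1 make up the next group. Of the 7, 2 were lower with palbociclib at 9 h and 7 at each later time. Among all tested genes 1.08% were lower at 9 h, and 4.81%, 8.79% and 12.3% at 12, 15 and 24 h. XRCC2 (chr7:152644779-152676165) was at 1.5, 1.73 and 1.25 CPM at 0 h, 6.73, 6.49 and 6.23 CPM in DMSO at 9 h, 26.3, 23.7 and 23.3 CPM at 12 h and 35.4, 35.5 and 30.7 CPM at 15 h. With palbociclib it was at 1.27, 1.24 and 1.37 CPM at 9 h and 2.04, 1.86 and 1.07 CPM at 15 h, close to 0 h. XRCC2 was 5.01-fold lower at 9 h (adjusted p = 1e-09 by edgeR's test) and 20.6-fold lower at 15 h.

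RAD54L, a DNA-dependent motor, was at 0.851, 0.288 and 0.656 CPM at 0 h, 4.62, 4.13 and 4.78 CPM in DMSO at 12 h, 11.5, 11.8 and 10.3 CPM at 15 h and 16.2 and 17.9 CPM at 24 h. With palbociclib it was at 0.596, 0.219 and 0.189 CPM at 15 h, which overlaps 0 h. The 3 palbociclib libraries at 9 h held 8 counts of RAD54L in all, so that low values are imprecise. The difference was 35.6-fold at 15 h (-5.16 ± 0.33 SE) and did not pass at 9 h (-1.80 ± 0.60 SE, adjusted p = 0.22 by edgeR's test). RAD54L shares 25.1% of its exon bases with LRRC41.

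RAD51AP1 was at 0.523, 0.865 and 1.01 CPM at 0 h, 14.3, 18.8 and 14.4 CPM in DMSO at 15 h and 1.02, 0.657 and 0.693 CPM with palbociclib. It was 20.6-fold lower with the drug at 15 h and 16.7-fold lower at 24 h. RAD51C and RAD51D moved less, by -1.15 and -0.68 at 15 h. RAD51C, found in both paralogue complexes, was at 9.16, 7.38 and 8.89 CPM at 0 h, 15.5, 16.8 and 14.1 CPM in DMSO at 15 h and 6.30, 7.28 and 7.25 CPM with palbociclib. RAD51D was at 6.67, 7.50 and 7.70 CPM at 0 h and reached 14.5, 14.4 and 14.0 CPM by 6 h in DMSO, ahead of RAD51C, which was then at 4.98, 5.05 and 3.94 CPM. With palbociclib at 15 h RAD51D was at 15.6, 13.6 and 12.5 CPM, above 0 h in each library. The values of XRCC3 (-1.39) and RAD54B (-2.38) carry more doubt, since 76.7% of the exon bases of XRCC3 lie in KLC1 and 51.3% of those of RAD54B in FSBP.

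Genes that process broken ends were split. EXO1, an exonuclease (chr1:241847967-241895148), had the largest fall with palbociclib of the 38 genes at 9, 12, 15 and 24 h. It was at 1.05, 1.79 and 1.25 CPM at 0 h, 0.467, 0.289 and 0.232 CPM in DMSO at 6 h, 3.00, 4.21 and 3.39 CPM at 9 h, 39.2, 33.9 and 36.4 CPM at 12 h and 81.6, 84.3 and 75.6 CPM at 15 h. With palbociclib it was at 0.523, 0.103 and 0.205 CPM at 9 h, 0.410, 0.299 and 0.418 CPM at 12 h, 0.256, 0.821 and 0.630 CPM at 15 h and 3.12 and 1.92 CPM at 24 h. Every palbociclib library up to 15 h lay below every library at 0 h. The 3 palbociclib libraries held 12, 17 and 28 counts of EXO1 in all at 9, 12 and 15 h. EXO1 was 13.7-fold lower at 9 h, 97.7-fold at 12 h, 131-fold at 15 h (-7.03 ± 0.18 SE, adjusted p = 1.5e-24 by edgeR's test) and 32.4-fold at 24 h.

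RAD50, a subunit of the MRN complex that holds ends, was the most abundant per length at 0 h, and its level with palbociclib was not distinguished from DMSO. It was at 291, 312 and 310 CPM at 0 h, 236, 236 and 247 CPM in DMSO at 15 h and 246, 263 and 249 CPM with palbociclib (0.08, adjusted p = 0.49 by edgeR's test). NBN, its partner, was at 111, 108 and 114 CPM in DMSO at 15 h and 102, 117 and 110 CPM with palbociclib, ranges that overlap. RBBP8, which starts the cutting, was at 87.1, 85.8 and 79.6 CPM and 44.6, 53 and 47.5 CPM (-0.79). DNA2, a nuclease that carries it on, was at 24.8, 26.1 and 25.2 CPM and 5.20, 3.72 and 3.47 CPM, 6.26-fold lower.

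The BLM helicase with TOP3A, RMI1 and RMI2 dissolves joined DNA molecules. All 4 were lower with palbociclib at each time, against 1.08%, 4.81%, 8.79% and 12.3% of all tested genes at 9, 12, 15 and 24 h. However, the 9 h call of TOP3A was lost without the filter (adjusted p = 0.138 by edgeR's test) and without single libraries (up to 0.252). BLM (chr15:90717327-90816165) was at 0.785, 0.750 and 1.07 CPM at 0 h, 28.4, 29.4 and 26.2 CPM in DMSO at 15 h, 39.5 and 39.1 CPM at 24 h, 1.70, 1.75 and 2.08 CPM with palbociclib at 15 h and 4.07 and 4.80 CPM at 24 h. The drug groups were above 0 h and far below DMSO. BLM was 31.9-fold higher in DMSO at 15 h than at 0 h and 15.1-fold lower with palbociclib. RMI2, an OB-fold subunit, was at 11.9, 9.42 and 9.75 CPM in DMSO at 15 h and 0.852, 0.438 and 0.567 CPM with palbociclib, 17.2-fold lower. RMI1, the scaffold subunit, went from 19.4, 17.3 and 17.8 CPM at 0 h to 4.75, 6.07 and 7.61 CPM at 3 h in DMSO, a 2.95-fold fall, and to 29.8, 33.5 and 32.5 CPM at 15 h. With palbociclib it stayed at 9.46, 9.63 and 9.58 CPM at 15 h, below 0 h, and was 3.34-fold lower with palbociclib at 15 h. TOP3A, the topoisomerase, was at 50.8, 44.3 and 47.0 CPM and 31.5, 30.6 and 31.1 CPM (-0.61).

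Of the structure-specific nucleases and their scaffold, EME1 and GEN1 fell with palbociclib from 12 h on, and SLX4, MUS81 and FAN1 did not pass at any time. EME1, the partner of MUS81, was at 4.60, 5.07 and 3.72 CPM in DMSO at 15 h and 0.682, 0.383 and 0.441 CPM with palbociclib, 9.16-fold lower, with 16.4% of its exon bases in LRRC59. GEN1, a Holliday junction resolvase, was at 39.5, 40.3 and 35.7 CPM and 15.2, 14.2 and 15.4 CPM, 2.59-fold lower. MUS81 (chr11:65857126-65867653) was at 24.3, 29.1 and 26.3 CPM at 0 h, 76.3, 83.3 and 71.8 CPM at 3 h, 38.7, 42.2 and 38.3 CPM in DMSO at 15 h and 36.9, 37.0 and 40.4 CPM with palbociclib. Its libraries at 3 h were above all others, a 2.90-fold rise (adjusted p = 6.1e-19 by edgeR's test), and 14.1% of its exon bases lie in CFL1 or EFEMP2. FAN1, a nuclease of cross-link repair, was at 38.5, 38.2 and 37.4 CPM at 0 h, 25.8, 29.9 and 30 CPM in DMSO at 15 h and 27.9, 25.4 and 27.2 CPM with palbociclib, lower than at 0 h in each of these libraries, with 24.3% of its exon bases in MTMR10. SLX4, the scaffold, was at 8.57, 8.59 and 10.3 CPM at 0 h and 21.3, 18.1 and 21.3 CPM in DMSO at 15 h, with 22.5, 19.1 and 19.4 CPM with palbociclib.

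POLQ, the polymerase of an alternative end-joining route (chr3:121431427-121546641), was at 0.720, 0.519 and 0.836 CPM at 0 h, 25.4, 27.4 and 28.4 CPM in DMSO at 15 h and 47.2 and 43.6 CPM at 24 h. With palbociclib it was at 0.426, 0.930 and 0.945 CPM at 15 h, which overlaps 0 h, and 4.64 and 2.40 CPM at 24 h. The rise in DMSO was 38.8-fold at 15 h and 65.1-fold at 24 h. The drug difference was 33.3-fold at 15 h (-5.06 ± 0.20 SE, adjusted p = 2.6e-19 by edgeR's test) and did not pass at 9 h (-1.10, adjusted p = 0.13).

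Against starved cells, the number of genes that were higher with palbociclib grew to 24 h. These comparisons share the 0 h libraries with those in DMSO. With palbociclib 12, 13, 15 and 22 of the 38 genes were higher than at 0 h at 9, 12, 15 and 24 h, and 13, 13, 13 and 7 lower. Of all genes, 34.9%, 35.0%, 35.1% and 34.3% were higher and 40.8%, 40.4%, 39.9% and 36.9% lower. The median of the 38 was 0.07, 0.12, 0.22 and 0.74. At 24 h BLM was 5.11-fold, FANCB 5.07-fold, POLQ 4.87-fold and XRCC2 3.52-fold above 0 h, and FANCE 7.26-fold below. From 15 to 24 h with palbociclib 17 genes rose and 3 fell, against 11.2% and 9.31% of all genes. Without the 5 libraries named above, each 24 h group had 1 library. Fewer genes were then called from 15 to 24 h, and fewer were called below 0 h at 24 h.

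The drug difference itself changed with time, tested as an interaction. Between 9 and 15 h it became more negative for 28 of the 38 genes, against 3.91% of all genes, and less negative for none by edgeR's test, with 0 at an unadjusted p below 0.05 and 0 by DESeq2, against 0.133%. The median change was -1.28. Between 15 and 24 h it became less negative for 6 genes, against 1.06%, and more negative for none (3 at an unadjusted p below 0.05 and 0 by DESeq2), against 1.92%. The 6 were EXO1, XRCC2, FANCB, POLQ, BRCA2 and BRCA1. The calls of BRCA2, FANCB and POLQ were lost without replicate 1 of palbociclib at 24 h, which left 1 library in that group.

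Per kilobase of exon, the order of the genes differed between groups. At 0 h RAD50 stood first with 31.2 ± 1.17 CPM per kb (SD, n = 3), then FANCE with 24.7 ± 0.24 and NBN with 11.1 ± 1.05, and POLQ was last with 0.0736. In DMSO at 15 h UBE2T stood first with 45.6 ± 4.25 CPM per kb, then RAD50 with 24.5 ± 0.669, EXO1 with 19.5 ± 1.08 and NBN with 18.0 ± 0.454, the last 2 within about their spread. With palbociclib at 15 h RAD50 was again first (25.8), followed by NBN (17.8) and UBE2T (13.0), and EXO1 was at 0.137 CPM per kb. The SD covers only the spread between libraries. Of 114 levels at 0 h and in DMSO at 15 and 24 h, 24 moved by their SD or more under library totals alone. FANCE at 0 h was then at 26.2 CPM per kb and kept its rank.

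Other repair genes were taken from 3 lists chosen by name. Of 48 tested other HR and FA genes, 8, 16, 21 and 24 were lower with palbociclib at 9, 12, 15 and 24 h (background shares as above), with medians of -0.06, -0.16, -0.20 and -0.23. USP1, which removes ubiquitin from FANCD2, fell by 1.34 on the log2 scale at 15 h, and FIGNL1, an ATPase of the HR pathway, by 2.17. Of 16 tested end-joining genes, 0, 4, 7 and 9 were lower, with PARP1 at -0.41 at 15 h. Of 18 nucleotide excision repair genes, 0, 1, 1 and 2 were lower, near the all-gene shares of 1.08%, 4.81%, 8.79% and 12.3%. Among them DDB2 was at -0.50 at 15 h. Genes of these lists that went the other way are not counted here. At 24 h POLM (end joining) was at 48.94 and 49.07 CPM with palbociclib and 39.41 and 37.22 CPM in DMSO. ERCC2 (excision repair) was then at 46.39 and 41.45 CPM with palbociclib and 33.03 and 29.72 CPM in DMSO. The difference between the lists was not tested.

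**Figure D5:**
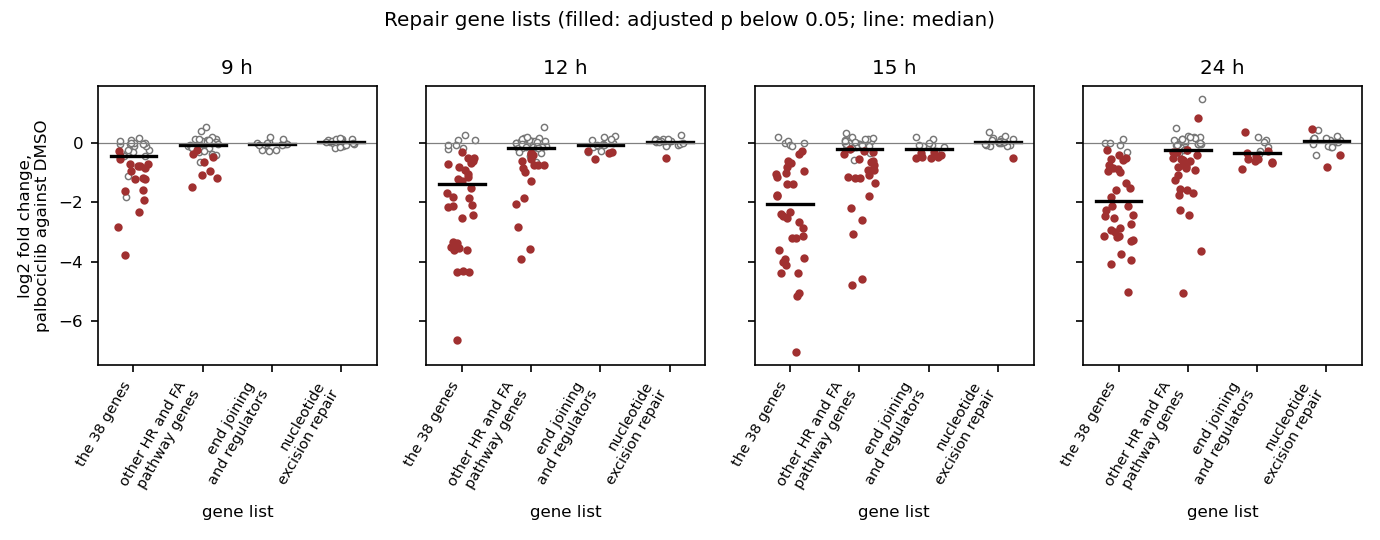
Log2 fold change of palbociclib against DMSO at 9, 12, 15 and 24 h (panels) for the 38 genes and for the lists of other HR and FA, end-joining and nucleotide excision repair genes, with filled points for called genes and a line at the median. The medians of the 3 other lists lie between -0.35 and 0.08, and that of the 38 genes between -2.06 and -0.45.

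The main axis of variation within groups held 27.5% of the variance between libraries of a group. On it, the replicate 3 libraries of the starved group and of DMSO up to 15 h had scores from -18.49 to -7.51, while replicate 3 of DMSO at 24 h and of the palbociclib groups, the 5 libraries left out above, scored between 7.839 and 27.16. Other libraries scored as far from 0, among them replicate 1 of palbociclib at 15 h (-31.64) and replicate 2 of DMSO at 6 h (24.83), and the 24 h scores mirror each other because those groups have 2 libraries. Of the 38 genes, 13 lay in the lowest quartile of loadings on that axis and 6 in the highest, with a median percentile of 36.7. The part of this axis in the drug differences was not tested beyond leaving those libraries out.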

How the data were processed

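The authors deposited raw counts per gene for each library, per the file headers made with featureCounts from Subread 1.5.1 on GENCODE 25 genes, with no strand option given. Per the submitters' processing notes, reads were checked with FastQC 0.11.3 and aligned with TopHat2 2.1.1 and Bowtie2 2.2.9 to GRCh38.p7. The kit is a stranded one, but the counting did not use the strand. How reads in exon bases shared between genes were assigned was not tested, and the counts and per-kilobase levels of such genes carry this doubt.

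The deposited counts of 31 libraries were grouped by the labels, filtered with filterByExpr, scaled by TMM (factors 0.9273 to 1.081) and fitted in 1 model by group with edgeR 4.0.16 (limma 3.58.1, R 4.3.3; 20 residual degrees of freedom, biological coefficient of variation 6.552%). Of 34335 genes with a count, 15787 were tested by edgeR's quasi-likelihood test, with Benjamini-Hochberg adjustment over all of them and a threshold of 0.05. An SE is the log2 fold change divided by the square root of the F statistic. The change in the drug effect was an interaction contrast. The procedure was tested on simulated data. DESeq2 1.42.0 was run as an alternative. Other alternatives were its size factors, library totals, no filter, only the libraries of a comparison, a replicate block, removal of a trend with exon length, leaving out each library and leaving out 5 libraries (replicate 3 of DMSO at 24 h and of each palbociclib group). Tables and figures were made with Python 3.11.15, pandas 2.3.3, numpy 2.4.6 and matplotlib 3.10.9.

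The members and lists were chosen with earlier results of these data known. Every member could be named, with full values for up to 6 called members per direction and comparison and for those a role needs. Up to 4 called genes per direction of each other list and 5 time marks could be named as well. Results of some genes are not reported here. Replicate numbers were not taken as pairs, and a block on them was an alternative.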

Additional observations from a re-analysis of the deposited data

Results flagged for a closer look

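The difference between palbociclib and DMSO was itself not the same at all times, as tested with interaction contrasts in edgeR's quasi-likelihood test. Between 9 and 15 h it became more negative for 28 of the 38 genes, against 3.91% of all genes. The largest changes (log2 ± SE) were those of POLQ (-3.95 ± 0.47), RAD54L (-3.35 ± 0.92), EXO1 (-3.25 ± 0.65), RAD51AP1 (-3.17 ± 0.42), EME1 (-2.75 ± 0.53) and BLM (-2.70 ± 0.28). The call of EXO1 was lost without replicate 1 of palbociclib at 9 h (-2.48, adjusted p = 0.154), and that of RAD54L without replicate 2 of that group (adjusted p = 0.259).

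Between 15 and 24 h the difference became less negative for 6 genes: EXO1 (2.01 ± 0.36), XRCC2 (1.65 ± 0.26), FANCB (1.37 ± 0.37), POLQ (1.32 ± 0.34), BRCA2 (0.869) and BRCA1 (0.827). The groups at 24 h had 2 libraries each.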

How the results depend on the processing

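The counts of genes lower with palbociclib than in DMSO stayed within 1.5 times of the reported ones under every alternative run, and with 1 library left out at a time they were 15 to 17 at 9 h, 30 to 31 at 12 h, 31 to 32 at 15 h and 31 to 33 at 24 h. Counts that include a 24 h group moved more. Leaving out a 24 h library, alone or among the 5, left 1 library in its group. Without the 5 libraries, the genes higher in DMSO at 24 h than at 15 h went from 14 to 9 and the lower ones from 2 to 1, those with palbociclib from 17 to 10 and from 3 to 0, and the genes lower with palbociclib at 24 h than at 0 h from 7 to 4. With 1 library left out, these ranges were 9 to 14, 1 to 3, 0 to 3 for the lower ones with palbociclib from 15 to 24 h, and 3 to 7 against 0 h. The genes lower in DMSO at 24 h than at 0 h numbered 2 to 4, and those whose drug difference became less negative from 15 to 24 h numbered 3 to 7. Without the filter, 1 gene fell from 15 to 24 h in DMSO and 1 with palbociclib, where the fit to only these libraries also gave 1. With library totals, 4 genes were higher at 3 h than at 0 h, and 1 fell from 9 to 12 h. A replicate block changed the genes that fell from 15 to 24 h in DMSO from 2 to 4 and moved no other count by over 1.5 times. Same-numbered libraries correlated, in their deviations from the group means, between -0.249 and 0.113 for palbociclib and DMSO at 9 to 15 h and at 0.297 at 24 h. For DMSO at 3 to 15 h and 0 h they correlated between 0.271 and 0.419 for replicate 2, 0.178 and 0.364 for replicate 3 and 0.0146 and 0.0609 for replicate 1, so that some same-numbered libraries deviated together and others did not. DNA2 with palbociclib at 24 h against 0 h (-0.47) turned to 0.0020 without replicate 3 of that group (-0.91 without replicate 1) and to 0.017 without the 5 libraries. The cause was not tested. Genes with few counts, such as RAD54L and EXO1 with palbociclib, are limited by depth.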
